A study of Mus musculus with 4 samples.

Results

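The genes described here are 7 genes of Schwann cells and their myelin: Mbp, Pmp22, Prx, Ngfr, Gfra3, Cdh19 and Mal. They were taken by gene symbol from the 19057 genes named on the array, and 6 of the 7 had a named probe. These 6 genes had 17 probes in all. Prx, which encodes periaxin, a scaffold protein of the peripheral myelin sheath, was not analysed here. The series asked what loss of the leukotriene B4 receptor BLT2 goes with in resting and healing mouse skin. Skin of 4 groups of C57Black6/J mice was measured. BLT2KO_punched is skin of mice deficient in the BLT2 receptor, taken 2 days after a punch wound, and BLT2KO is unpunched skin of the same genotype. WT_punched is skin of wild-type control mice 2 days after punching, and WT is their unpunched skin. The material was whole punch biopsies of 5 mm, and RNA of 3 mice was mixed before labelling, so each group was 1 array of 1 pool. The spread between mice was not measured, nothing here was tested, and no p-value for a difference is given. The labels do not state the age or sex of the mice, nor how the receptor gene was deleted.

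Schwann cells are the glia of peripheral nerves. In skin they wrap the axons of sensory and autonomic fibres, the larger ones in compact myelin and the thin ones in non-myelinating bundles, and they end at hair follicles and touch receptors. After a nerve is cut they can leave the myelinating state, reduce their myelin transcripts and raise receptors such as p75, which Ngfr encodes. Mbp encodes myelin basic protein, which holds the cytoplasmic faces of the myelin membrane together. Its locus also gives longer transcripts, called golli, that are used outside myelin. Pmp22 encodes a 4-span membrane protein of compact myelin whose dosage matters for inherited neuropathy in humans, and which is also made by fibroblasts and epithelia. Gfra3 encodes the receptor that binds artemin, Cdh19 a cadherin of Schwann cells and their precursors, and Mal a membrane protein of myelin that epithelia and T cells also make.

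Promoter windows are shown for Pmp22 and Ngfr, the 2 genes that were detected on all 4 arrays and had a window in the RefSeq table (build GRCm38.p6). Each window is 300 bases around a transcript start. The table held 7 windows for 4 of the 7 genes (Pmp22, Prx, Ngfr and Mal). Pmp22 is known to be transcribed from alternative promoters, one tied to myelination and another used in many tissues, and the table listed 4 windows for it, of which the first and the last are printed. The platform annotation ties both Pmp22 probes to the same RefSeq transcript, and where they lie relative to these starts was not examined. Capitals mark GGGCGG or its complement, the GC box that factors of the SP family can bind.
Pmp22, window 1, chr11:63128732-63129031, plus strand: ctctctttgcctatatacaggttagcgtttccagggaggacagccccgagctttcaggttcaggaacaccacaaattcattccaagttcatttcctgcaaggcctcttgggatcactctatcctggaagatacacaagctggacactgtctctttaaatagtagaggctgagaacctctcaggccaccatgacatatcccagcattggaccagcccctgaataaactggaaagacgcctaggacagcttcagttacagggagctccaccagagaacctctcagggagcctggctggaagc
Pmp22, window 4, chr11:63132553-63132852, plus strand: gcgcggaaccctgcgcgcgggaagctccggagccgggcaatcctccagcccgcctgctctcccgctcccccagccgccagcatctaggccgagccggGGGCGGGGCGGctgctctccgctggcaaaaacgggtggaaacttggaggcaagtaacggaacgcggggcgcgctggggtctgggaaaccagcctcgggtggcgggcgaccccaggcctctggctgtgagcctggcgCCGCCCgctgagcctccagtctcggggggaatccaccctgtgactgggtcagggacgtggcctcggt
Ngfr, chr11:95587649-95587948, minus strand: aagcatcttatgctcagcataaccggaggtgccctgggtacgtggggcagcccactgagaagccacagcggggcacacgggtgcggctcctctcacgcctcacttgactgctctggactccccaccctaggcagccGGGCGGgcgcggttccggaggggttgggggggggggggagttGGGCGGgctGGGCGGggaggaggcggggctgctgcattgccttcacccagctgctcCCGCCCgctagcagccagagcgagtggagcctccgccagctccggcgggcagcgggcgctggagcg
Window 1 of Pmp22 had a GC content of 50.7% and no match to GGGCGG on either strand, window 4 had 72.3% and 3 matches, and the Ngfr window had 71.7% and 4 matches. Of the windows not printed, Pmp22 window 2 had 60.0% and 3 matches and window 3 had 66.3% and 0 matches. The Prx and Mal windows had 0 matches. Of all 32851 promoter windows of this length, 35.7% held at least 1 match. The core letters of SOX family sites, ACAAAG and ACAATG, were in 18.7% and 12.6% of all windows on either strand, and in 0 of the 7 windows of these genes. The EGR family site GCGTGGGCG was in 0.612% of all windows and GCGGGGGCG, which can share letters with a GGGCGG match, in 2.91%, and neither was in the 7. The TATA box letters TATAAA were in 13.6% of all windows and in 0 of the 7. These matches describe letters in the windows and not binding.

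At a detection p-value under 0.01, between 36.2% and 38.0% of the 45281 probes were detected on an array. All 6 epidermal keratinocyte markers fixed for the check of the tissue were detected on all 4 arrays. Of the 17 probes, 5 were detected on all 4 arrays, 2 on some and 10 on none. Mbp, Pmp22 and Ngfr had probes detected on all 4 arrays, and Gfra3 had 1 probe detected on 3. Neither probe of Cdh19 and none of the 3 probes of Mal was well above background on any array. Precision is limited by the number of arrays. The WT_punched array stood apart in slow skeletal muscle markers, of which 5 of 6 were detected on some array and Myh7 on none. Their summed background-corrected intensity was 623 on BLT2KO_punched and 369 on BLT2KO, and 5892 on WT_punched and 298 on WT, and 4 of 5 measured markers were at least 2-fold higher on WT_punched than on WT. Each ratio with punching in WT and each genotype ratio in punched skin rests on that array, and the part of muscle in them was not tested. The ratios with punching in BLT2KO do not use it. In biopsies of bulk tissue, fewer cells of a type and less RNA per cell cannot be told apart.

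**Figure D1:**
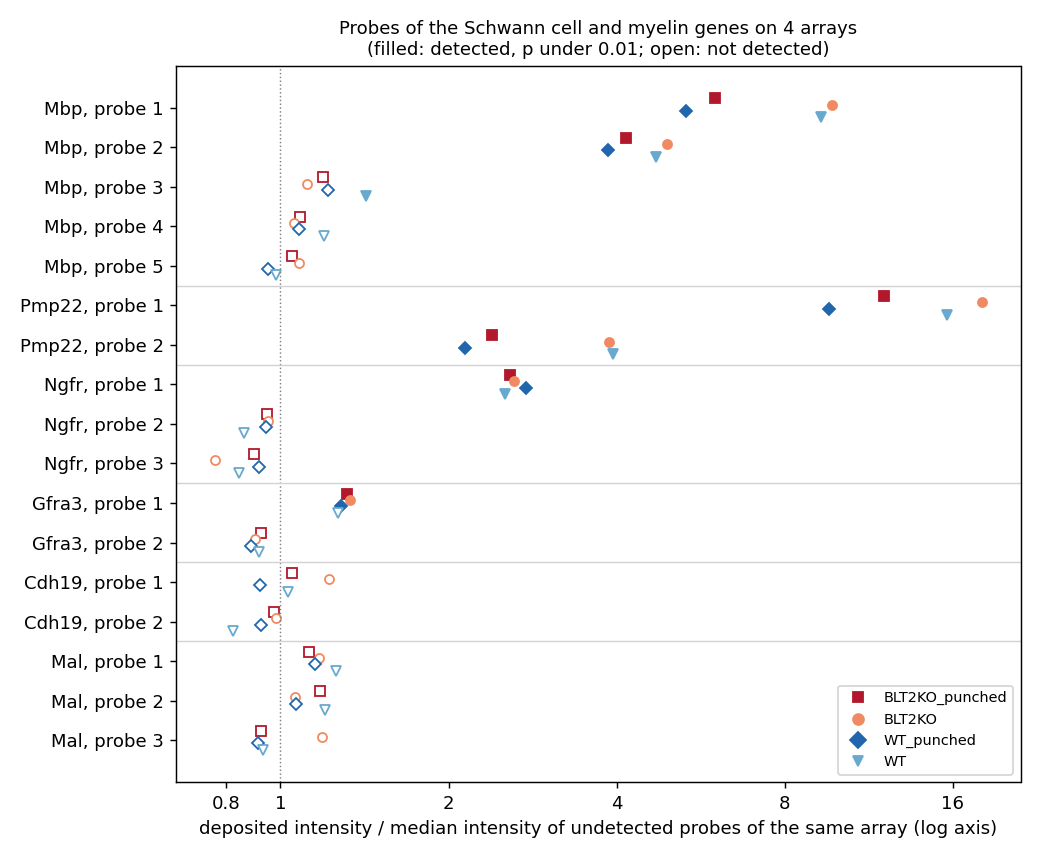
Deposited intensity of each of the 17 probes divided by the median intensity of undetected probes on the same array (horizontal log axis), with 1 point per array and probes of a gene numbered from the brightest. Pmp22 probe 1 reached 18.1 times the undetected median on the BLT2KO array and Mbp probe 1 reached 9.72 times, whereas the open points, which mark probes that were not detected, lie near 1.

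On the brightest Mbp probe and on both Pmp22 probes, the larger ratios were by wound state. The second Mbp probe detected on all 4 arrays changed less, with ratios of -0.07 with punching in BLT2KO and -0.16 in WT. The brightest Mbp and Pmp22 probes were lower in punched than in unpunched skin of both genotypes, the Ngfr probe was higher, and no gene reached a 2-fold ratio in any of the 4 comparisons. The brightest Mbp probe had an intensity of 536 on BLT2KO_punched and 621 on BLT2KO, and of 496 on WT_punched and 606 on WT. After background correction and quantile normalization its log2 level was 8.68 on BLT2KO_punched and 9.24 on BLT2KO, and 8.63 on WT_punched and 9.38 on WT. Both punched arrays thus lay below both unpunched arrays, before and after normalization. The ratio was a log2 value of -0.56 (1.48-fold lower) in BLT2KO skin and -0.75 (1.68-fold lower) in WT skin. The technical error beside such ratios is the probe disagreement, the SD between the ratios of 2 probes of the same gene scaled to a single probe, which was 0.27 for punching in BLT2KO and 0.28 for punching in WT on the log2 scale. It leaves out any error that a whole array shares and the spread between mice. In BLT2KO skin, 8.36% of the 10587 measured genes had a lower ratio than Mbp, and in WT skin 3.72% of 10382. For Pmp22 these shares were 15.7% and 5.97%. A higher ratio than that of Ngfr was found for 28.6% in BLT2KO and 14.5% in WT.

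The other probes of Mbp did not all follow the brightest. The second Mbp probe, which the platform annotation ties to another transcript of the gene, had log2 levels of 8.05 on BLT2KO_punched and 8.12 on BLT2KO, and 8.07 on WT_punched and 8.23 on WT. Its ratio with punching was -0.07 in BLT2KO and -0.16 in WT skin. The ratios of the 2 probes differed by -0.49 in BLT2KO and -0.59 in WT, against an SD of 0.39 for the difference of 2 probes of 1 gene in either comparison. The third probe was detected on the WT array alone, at a log2 level of 5.55, and the remaining 2 on none. By intensity alone the second probe was higher with punching, at 371 on BLT2KO_punched and 315 on BLT2KO, and 360 on WT_punched and 306 on WT, so its direction turned with normalization. The labels do not say which of the myelin and golli transcripts each probe reads.

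For Pmp22 both probes were detected on all 4 arrays and both were lower with punching. The brighter probe had an intensity of 1078 on BLT2KO_punched and 1153 on BLT2KO, and of 894 on WT_punched and 1019 on WT. Its log2 level was 9.79 on BLT2KO_punched and 10.17 on BLT2KO, and 9.58 on WT_punched and 10.19 on WT. The ratio was -0.38 in BLT2KO and -0.61 (1.53-fold lower) in WT skin. The dimmer probe had log2 levels of 6.99 on BLT2KO_punched and 7.70 on BLT2KO, and 6.89 on WT_punched and 7.90 on WT, ratios of -0.72 (1.64-fold lower) and -1.02 (2.03-fold lower). After normalization the 2 punched arrays lay below the 2 unpunched ones on each probe, whereas by intensity BLT2KO_punched lay above WT on the brighter probe. The dimmer probe in WT skin was the one case among the probes detected on both arrays of a comparison that passed 2-fold.

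Ngfr, the gene of the p75 neurotrophin receptor, had the opposite direction. Its detected probe had an intensity of 231 on BLT2KO_punched and 167 on BLT2KO, and of 257 on WT_punched and 164 on WT. The log2 level was 7.15 on BLT2KO_punched and 6.95 on BLT2KO, and 7.43 on WT_punched and 7.02 on WT. The ratio of 0.20 (1.15-fold higher) in BLT2KO lay within the probe disagreement of 0.27, and that of 0.41 (1.33-fold higher) in WT was above the 0.28 of its comparison. Of all measured genes, 56.6% in BLT2KO and 29.2% in WT lay at least as far from the median ratio. The punched arrays also had the higher background: undetected probes had a median intensity of 89.3 on BLT2KO_punched and 63.9 on BLT2KO, and 93.3 on WT_punched and 65.1 on WT. Set over that median, the Ngfr intensity was 2.58 on BLT2KO_punched and 2.62 on BLT2KO, and 2.76 on WT_punched and 2.52 on WT. The other 2 Ngfr probes were not detected on any array.

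Gfra3, whose product binds artemin, lay at the edge of detection. Its detected probe had an intensity of 118 on BLT2KO_punched and 85.0 on BLT2KO, and of 120 on WT_punched and 82.7 on WT, where its detection p-value was 0.0171. In BLT2KO skin the log2 levels were 5.40 with and 5.24 without punching, a ratio of 0.16 that lay within the probe disagreement. In WT skin the punched level was 5.41, at least 1.13-fold above the WT array, where the probe was set at the lowest level of a detected probe. No direction with punching is drawn from these values. The artemin gene Artn and the signalling receptor gene Ret were named here as partners of Gfra3 after their values were seen. The brightest Artn probe had log2 levels of 5.83 on BLT2KO_punched, 5.85 on WT_punched and 5.79 on WT, with no detection on BLT2KO. Another Artn probe was detected on the punched arrays alone, at 5.17 on BLT2KO_punched and 5.51 on WT_punched, with undetected levels of 4.48 on BLT2KO and 4.79 on WT. Ret was at 7.31 on BLT2KO_punched and 6.94 on BLT2KO, and 6.98 on WT_punched and 6.55 on WT. A second Ret probe detected on all 4 arrays gave a ratio with punching of 0.03 in BLT2KO and 0.77 in WT, against 0.37 and 0.43 on the first.

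**Figure D2:**
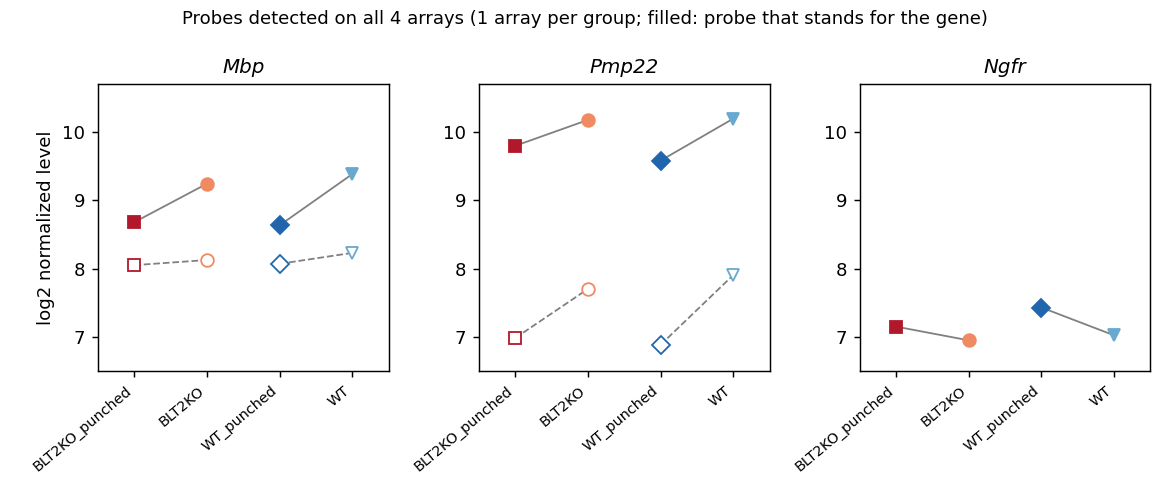
Log2 normalized level of the probes of Mbp, Pmp22 and Ngfr that were detected on all 4 arrays, by group, with 1 array per group and lines that join the punched and unpunched array of a genotype. The Mbp and Pmp22 probes are lower on the punched array of each genotype, by 0.07 to 1.02, and the Ngfr probe is higher, by 0.20 and 0.41.

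The levels of Cdh19 and Mal have only an upper limit. The brighter Cdh19 probe had intensities of 93.6 on BLT2KO_punched and 78.0 on BLT2KO, and 85.7 on WT_punched and 67.3 on WT, and its lowest detection p-value was 0.0246, on BLT2KO. The brightest Mal probe had 100.3 on BLT2KO_punched and 74.7 on BLT2KO, and 107 on WT_punched and 81.9 on WT, with its lowest detection p-value at 0.0182, on WT. Neither gene is given a ratio.

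With 4 of the 7 genes measured, the median log2 ratio with punching was -0.11 in BLT2KO and -0.22 in WT skin, against 0.00 and 0.03 over all measured genes. In each genotype Mbp and Pmp22 had negative ratios and Ngfr a positive one, and the positive value of Gfra3 carries no direction. None of the 4 passed 2-fold, where 4.81% of 10587 measured genes did so in BLT2KO and 3.42% of 10382 in WT. A count of 0 among 4 is near these shares and is no result about these genes. The ratios with punching were smaller in size in BLT2KO than in WT for Mbp, Pmp22 and Ngfr. The difference of the ratios, BLT2KO minus WT, was 0.19 for Mbp, 0.24 for Pmp22 and -0.21 for Ngfr. The probe disagreements of the 2 ratios, combined as if independent, gave 0.39. However, the Mbp probes differed alike in both genotypes, by -0.49 in BLT2KO and -0.59 in WT, and the Pmp22 probes by 0.34 and 0.41. The technical error of such a difference was thus not measured, and the difference was not tested.

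Between genotypes the brightest Mbp and Pmp22 probes had ratios smaller in size than with punching. With the mean of all its probes, Mbp was instead at -0.26 for BLT2KO over WT and at -0.05 with punching in BLT2KO. BLT2KO against WT skin without a wound gave log2 ratios on these probes of -0.14 for Mbp, -0.02 for Pmp22 and -0.07 for Ngfr, all within the probe disagreement of 0.22, and Gfra3, detected on the BLT2KO side alone, had a bound of 0.01. The median of the 4 was -0.05, against -0.01 over all genes. In punched skin, BLT2KO_punched against WT_punched gave 0.05 for Mbp, -0.01 for Gfra3, 0.22 for Pmp22 (1.16-fold higher) and -0.28 for Ngfr (1.21-fold lower), where the probe disagreement was 0.19, so the Pmp22 and Ngfr ratios lay above it. The second Pmp22 probe gave 0.10. Of all measured genes, 27.5% lay at least as far from the median ratio as Pmp22, and 28.9% as far as Ngfr. The median was 0.02, against -0.03 over all genes. No gene of the 4 passed 2-fold in either comparison, where 2.26% of 10235 genes did so in unpunched and 1.62% of 10540 in punched skin. In order of level, Mbp was highest on WT, then BLT2KO, BLT2KO_punched and WT_punched, and Pmp22 had the same order. For both, WT and BLT2KO were neighbours within the probe disagreement, as were the punched arrays for Mbp.

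**Figure D3:**
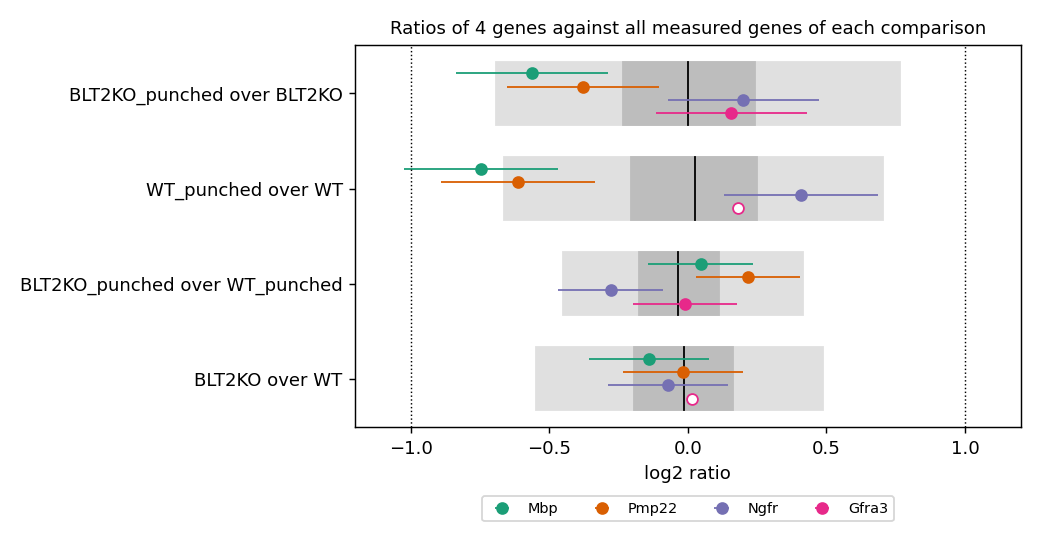
Log2 ratios of Mbp, Pmp22, Ngfr and Gfra3 in the 4 comparisons (horizontal axis), with the probe disagreement as error bars and open points for bounds. Light bands leave out the outer 5% of measured genes at each end (-0.66 to 0.70 for punching in WT). Dark bands cover the middle 50%, black lines mark the median and dotted lines 2-fold. Points are the brightest probe of each gene, and Mbp with punching in WT, at -0.75, is the one point outside its light band. The second probes, not drawn, gave -0.16 for Mbp, inside that band, and -1.02 for Pmp22, outside it.

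The other genes of the same biology were read from 6 lists with 81 genes, of which 69 were named on the array. S100b, a calcium-binding protein of Schwann cells, and Erbb3, the neuregulin receptor of the lineage, were not detected on any array. Of the genes measured in each comparison, 1 of 46 was at least 2-fold higher and 0 lower with punching in BLT2KO, and 0 of 46 higher and 1 lower in WT. BLT2KO over WT had 1 of 45 higher and 1 lower, and BLT2KO_punched over WT_punched had 1 of 46 higher and 0 lower. Over all genes, 3.1% were 2-fold higher and 1.71% lower with punching in BLT2KO, 1.94% and 1.48% in WT, 1.08% and 1.17% in BLT2KO over WT, and 1.08% and 0.541% in BLT2KO_punched over WT_punched. The medians of the lists together were -0.07 and -0.09 with punching in BLT2KO and WT, and 0.01 and 0.08 for the genotype in punched and unpunched skin.

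Of 13 further myelin structure genes, 10 were named and 6 measured, with 0 past 2-fold. The gap junction gene Gjb1, the related Gjc3, the proteolipid gene Pllp and the claudin gene Cldn19 were not detected. Dag1, which encodes dystroglycan, the laminin receptor of the outer Schwann cell membrane and of many other cells, was at 8.56 on BLT2KO_punched and 9.17 on BLT2KO, and 8.27 on WT_punched and 8.78 on WT. Its ratio with punching was -0.62 in BLT2KO and -0.51 in WT, the direction of Mbp and Pmp22, but a second Dag1 probe gave -0.07 and -0.18. Mag, a myelin-associated glycoprotein that faces the axon, was at 5.45 on BLT2KO_punched, 5.71 on WT_punched and 5.81 on WT, and was not detected on BLT2KO. Ncmap, a myelin membrane protein, was detected on every array but WT_punched. With the processing as reported, it was there at least 1.56-fold lower than on WT and at least 1.59-fold lower than on BLT2KO_punched. Over the other settings its log2 ratio ran from -0.84 to -0.20 for WT_punched over WT and from 0.24 to 0.87 for BLT2KO_punched over WT_punched.

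All 13 named transcription factor genes of the lineage were detected on at least 1 array, and 0 of them passed 2-fold in any comparison. Sox10, the factor that Schwann cells and melanocytes share, was at 7.49 on BLT2KO_punched and 7.30 on BLT2KO, and 7.15 on WT_punched and 7.13 on WT. Its ratio with punching was 0.19 in BLT2KO and 0.02 in WT, within the probe disagreement. In the same comparisons the brightest Mbp probe was at -0.56 and -0.75, and the second Mbp probe at -0.07 and -0.16. The summed background-corrected intensity of 6 melanocyte markers moved with genotype, at 2134 on BLT2KO_punched, 2633 on BLT2KO, 564 on WT_punched and 1055 on WT. Of these markers 3 were at least 2-fold higher in BLT2KO in unpunched skin (Pmel, Dct and Tyrp1) and 3 in punched skin (Pmel, Dct and Mlana). Tyr was not detected, and the part of these markers in the Sox10 level was not tested. Egr2, the zinc finger factor that drives myelin genes and is also used in hair follicles, was at 9.40 on BLT2KO_punched and 9.82 on BLT2KO, and 8.70 on WT_punched and 9.46 on WT. It was 1.33-fold lower with punching in BLT2KO, 1.70-fold lower in WT, and 1.62-fold higher in BLT2KO_punched than in WT_punched. The summed intensity of 7 hair markers was 40390 on BLT2KO_punched and 41860 on BLT2KO, and 811 on WT_punched and 4576 on WT, and all 7 were at least 2-fold higher in BLT2KO in both wound states. Their part in the Egr2 values was not tested. Jun, which represses myelin genes after nerve injury, was 1.46-fold higher with punching in BLT2KO and 1.36-fold higher in WT. Zeb2, a repressor that Schwann cells need to myelinate and that macrophages also express, was 1.51-fold and 1.92-fold higher, with a second probe at 0.03 and -0.03 on the log2 scale. The 5 named macrophage markers summed to 2348 on BLT2KO_punched and 2064 on BLT2KO, and 3169 on WT_punched and 2553 on WT. With punching, 3 of them were higher and 2 lower in BLT2KO, and 4 higher and 1 lower in WT. The part of these markers in Zeb2 was not tested.

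Among ligands and receptors, 13 of 17 named genes were detected on at least 1 array. Nrg1, the neuregulin that axons present to ERBB receptors, was at 6.14 on BLT2KO_punched and 5.22 on BLT2KO, and 6.51 on WT_punched and 6.99 on WT. It was thus 3.40-fold lower in BLT2KO than in WT without a wound and 1.29-fold lower in punched skin. The unpunched log2 ratio of -1.76 was -0.83 without background correction and -0.51 with the mean of probes, short of 2-fold in both. The level on BLT2KO was close to the lowest of any detected probe there, 5.20. Gdnf, a ligand that uses RET, was named after its values were seen; it was 1.57-fold higher with punching in BLT2KO and 1.54-fold higher in WT. Dhh, a hedgehog ligand of Schwann cells, was 1.63-fold and 1.26-fold higher. Over the other settings the log2 ratio of Gdnf ran from 0.31 to 0.79 in BLT2KO and from 0.35 to 0.79 in WT. That of Dhh ran from 0.33 to 0.82 in BLT2KO and from 0.17 to 0.48 in WT. Adgrg6, the adhesion receptor that starts myelination, was detected on the unpunched arrays alone. With punching and the processing as reported, it was lower by at least 1.57-fold in BLT2KO and at least 1.18-fold in WT. Over the other settings its log2 ratio ran from -1.26 to -0.13 in BLT2KO and from -0.98 to -0.02 in WT, so the size of the fall is not settled.

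Of 10 named genes of immature and repair Schwann cells, 4 were measured. Gap43, L1cam, Gfap, Fabp7 and Clcf1, besides S100b, were not detected on any array. Atf3, a stress-induced factor that injured neurons and many skin cells use, was 2.07-fold higher with punching in BLT2KO and 1.58-fold higher in WT. Over the other settings its log2 ratio in BLT2KO was as low as 0.59, short of 2-fold. Btc, an EGF family ligand made by repair Schwann cells and by keratinocytes, was at 6.90 on BLT2KO_punched and 7.90 on BLT2KO, and 6.75 on WT_punched and 8.13 on WT, log2 ratios of -0.999, just short of 2-fold, and -1.38. Over the other settings the WT ratio ran from -1.38 to -0.95. Shh, which hair follicle matrix also makes, was 2.44-fold higher in BLT2KO than in WT and at least 2.08-fold higher in BLT2KO_punched than in WT_punched, in the direction of the hair markers, whose part was not tested. The log2 ratio of Shh ran from 0.58 to 1.31 in unpunched skin and from 0.43 to 1.62 in punched skin over the other settings. The bound of 2.08-fold thus did not hold under each setting. In the list of other Schwann-enriched genes, 4 of 9 were measured in some comparison. Ptprz1, a receptor phosphatase of glia, was 1.97-fold lower in BLT2KO_punched than in WT_punched, at 5.18 and 6.16, and at least 1.62-fold lower in BLT2KO than in WT. The ratio in punched skin, -0.98 on the log2 scale, was -0.59 with an offset of 50 and -0.39 without background correction. In unpunched skin the Ptprz1 ratio ran from -0.99 to -0.26 over the other settings, so the bound of 1.62-fold did not hold under each. Rxrg, a retinoid receptor, had log2 ratios between -0.32 and 0.09 in the 4 comparisons, and Col28a1 was detected on BLT2KO_punched alone.

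The lipid list, genes for the galactolipids, sulfatide and cholesterol that myelin and also epidermis and sebaceous glands need, had 9 measured genes. As reported, all 9 had ratios below 0 with punching in each genotype and 0 passed 2-fold, with a median of -0.40 in BLT2KO and -0.23 in WT. Of all measured genes 49.9% were below 0 in BLT2KO and 46.6% in WT. Under median scaling, which raised all ratios, 7 of 9 were below 0 in BLT2KO and 4 of 9 in WT, while all 9 stayed below the median of all genes in each genotype. Gal3st1, the sulfotransferase that makes sulfatide, was at 7.70 on BLT2KO_punched and 8.34 on BLT2KO, and 7.51 on WT_punched and 8.30 on WT, 1.55-fold and 1.73-fold lower. The cholesterol genes Lss and Cyp51 were 1.44-fold and 1.38-fold lower in BLT2KO. In WT their log2 ratios were -0.23, within the probe disagreement of 0.28, and -0.29, and both turned with the setting, up to 0.13 for Lss with the mean of probes and 0.03 for Cyp51 under median scaling. Of 3 named sebaceous gland markers 1 was detected, with sums of 34.6 on BLT2KO_punched and 60.9 on BLT2KO, and 29.2 on WT_punched and 43.8 on WT. The 6 epidermal keratinocyte markers summed to 77161 on BLT2KO_punched and 93121 on BLT2KO, and 81211 on WT_punched and 83601 on WT. With punching 6 of the 6 were lower in BLT2KO, at a median of -0.28, and 3 of 6 in WT, at a median of -0.11. The part of either in the lipid genes was not tested. Ugt8a, whose enzyme makes the galactolipid of myelin, was not detected on any array.

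**Figure D4:**
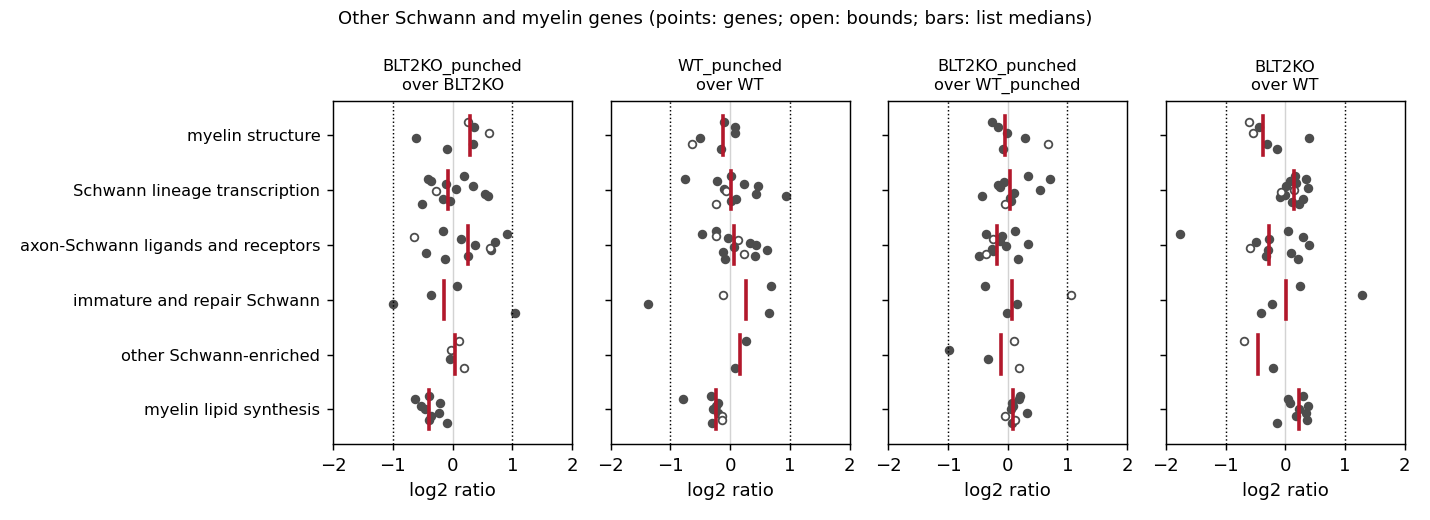
Log2 ratios of the measured genes in the 6 lists, 1 panel per comparison, with open points for bounds, red bars for list medians and dotted lines at 2-fold. With the processing as reported, the 9 lipid genes lie below 0 in both panels of punching (4 of 9 in WT under median scaling), and Nrg1 at -1.76 is the lowest point in the panel of BLT2KO over WT.

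Markers of other cells were read beside these genes. Of 9 named sensory axon markers only Stmn2, a tubulin-binding protein, was detected, at a ratio of -0.20 with punching in BLT2KO and 0.03 in WT, and the 5 oligodendrocyte markers were not detected on any array. The 6 fibroblast markers, which are of interest because fibroblasts also make Pmp22, were detected on all 4 arrays. Their summed background-corrected intensity was 25029 on BLT2KO_punched and 34028 on BLT2KO, and 22184 on WT_punched and 28414 on WT, and 5 of the 6 were lower with punching in each genotype. The 6 neutrophil markers summed to 21996 on BLT2KO_punched and 4619 on BLT2KO, and 25130 on WT_punched and 13507 on WT. The part of either in the Mbp, Pmp22 and Ngfr values was not tested.

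Genes with a like pattern were sought by the distance over the 4 array-centred log2 levels to the median profile of Mbp, Pmp22 and Ngfr. That profile was -0.14 on BLT2KO_punched and 0.24 on BLT2KO, and -0.35 on WT_punched and 0.26 on WT, the pattern of Mbp and Pmp22 and opposite to that of Ngfr. The nearest of 9108 genes were Maml2, a coactivator of Notch signalling, Tbrg1 and Srfbp1, at root-mean-square distances of 0.0152, 0.0216 and 0.0226 on the log2 scale. A distance within the mean probe disagreement of the 4 comparisons was met by 2911 of the 9108 genes, so the profile did not set these genes apart. Maml2 was at 7.64 on BLT2KO_punched and 8.06 on BLT2KO, and 7.46 on WT_punched and 8.05 on WT.

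**Figure D5:**
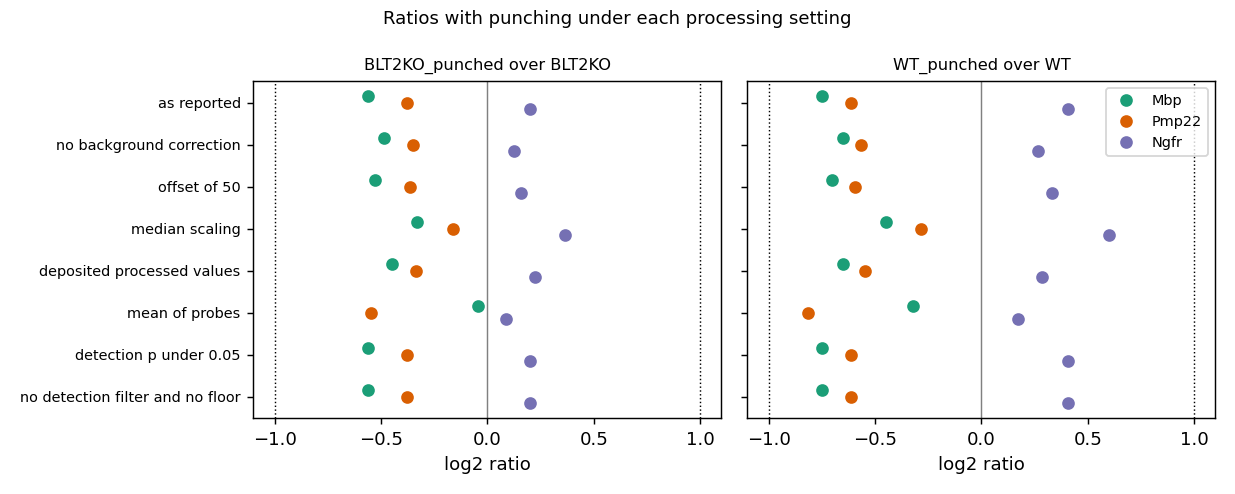
Log2 ratios with punching of Mbp, Pmp22 and Ngfr in BLT2KO (left) and WT skin (right) under the reported and 7 other processing settings. The Mbp points lie between -0.75 and -0.05 and the Pmp22 points between -0.82 and -0.16, all below 0, and the Ngfr points lie between 0.09 and 0.60.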

How the data were processed

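Per the labels' protocols, pooled RNA was amplified and labelled with biotin for Illumina MouseWG-6 BeadChip arrays, and raw values came from BeadStudio. The authors deposited each probe's linear intensity without normalization and, per the file headers, a detection p-value beside it. A second deposited table of intensity values differed from the first by a single factor for each array (0.950 to 1.24). Its medians were 92.0 for BLT2KO_punched, 79.5 for BLT2KO, 96.6 for WT_punched and 88.8 for WT. No source states how that factor was chosen.

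Background was removed from the first table with the detection p-values and arrays were quantile-normalized, both with neqc of limma 3.58.1 in R 4.3.3 (offset 16), then put on the log2 scale. The steps were tested on simulated data. Later steps used Python 3.11.15, numpy 2.4.6, pandas 2.3.3 and matplotlib 3.10.9. The platform annotation named 34885 probes with 1 gene, 18 with several, which stayed unnamed, and none for 10378, and 34807 gene IDs matched RefSeq (GRCm38.p6). The probe with the highest mean stood for a gene. A gene entered a comparison when detected (p-value under 0.01) on at least 1 of the 2 arrays; an undetected side took the lowest log2 level of any detected probe on that array (5.10 to 5.23), or its own level where that was higher, and its ratio is "at least". Ratios and counts at 2-fold have no test, since each group is 1 array.

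The 7 genes and the lists were chosen with earlier results of these data known. Named genes were the 7; Sox10, S100b, Egr2, Erbb3 and others chosen by name that are not reported here; up to 3 genes of each list with the largest ratio in size; and the 3 genes nearest to the median profile of the genes detected on all 4 arrays. The labels give no slide or scan batch, so a batch and a group cannot be told apart.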

Additional observations from a re-analysis of the deposited data

How the results depend on the processing

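No paired analysis was possible because each group had 1 array. Leaving out an array was not possible for the same reason. The other settings were no background correction, an offset of 50, median scaling, the deposited processed values, the mean of a gene's probes (with no floor, since dim probes enter the mean), a detection p-value under 0.05, and no detection filter and no floor. The number of the 7 genes past 2-fold was 0 in all 4 comparisons under each of the 7 settings. Their median ratio crossed 0 in 3 of the comparisons (-0.20 to 0.02 with punching in BLT2KO, -0.01 to 0.10 for BLT2KO_punched over WT_punched and -0.11 to 0.05 for BLT2KO over WT). With punching in WT it ran from -0.25 to -0.03, and the value nearest 0 came from median scaling. Mbp and Pmp22 were below 0 and Ngfr above 0 with punching in both genotypes under each setting. Over the settings, Mbp ranged from -0.56 to -0.05 in BLT2KO and from -0.75 to -0.32 in WT, the values nearest 0 coming from the mean of its 5 probes, of which only 2 were detected on all arrays. Pmp22 ranged from -0.55 to -0.16 and from -0.82 to -0.28. Median scaling moved the median of all genes to 0.16 with punching in BLT2KO, 0.25 in WT, 0.03 for BLT2KO_punched over WT_punched and 0.12 for BLT2KO over WT; relative to it Mbp was at -0.50 and -0.70 and Pmp22 at -0.32 and -0.54 with punching in BLT2KO and WT.

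For the other listed genes and the named genes outside the 7, the settings were applied after seeing the data. Their counts past 2-fold were small and moved with the setting. Without background correction the count was 0 in each of the 4 comparisons. In the deposited processed values it was 0 with punching in BLT2KO, 0 in WT, 0 for BLT2KO_punched over WT_punched and 1 for BLT2KO over WT, and with an offset of 50 it was 0 with punching in BLT2KO, 0 for BLT2KO_punched over WT_punched and 1 for BLT2KO over WT. The mean of probes gave 0 for both genotype comparisons. Median scaling gave 2 with punching in each genotype, and no filter and no floor gave 2 with punching in BLT2KO. For BLT2KO over WT the direction turned with the setting for Mbp (-0.26 to 0.03), Pmp22 (-0.11 to 0.17), Ngfr (-0.11 to 0.04) and Gfra3 (-0.13 to 0.09), which is limited by its signal over background.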
